A study of Mus musculus with 8 samples.

Results

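The comparison was of the mouse optic fissure at embryonic day 12.5 (E12.5) with the same tissue a day earlier, at E11.5, across all measured genes. It used the 3 arrays of E11.5 and the 2 of E12.5, which are 5 of the 8 arrays in the series. The remaining 3 arrays were of E10.5 and entered the fit to estimate the spread. They also entered the mean signal over all 8 arrays that set the low-signal filter and the choice of probe set. Each array held RNA pooled from 3 wild-type C57BL/6 embryos of 1 stage, with no treatment, from fissure tissue cut by laser from frozen sections. Letters A to C in the array titles name the replicates of a stage. The labels call them biological replicates but differ on whether the 3 embryos of a pool shared a litter. Of 45101 probe sets, 34945 were not controls and carried 1 gene symbol. Of these, 22650 passed a filter on low signal, and they covered 13050 of the 18193 genes named on the array. Those 13050 are the measured genes below, each represented by its passing probe set with the highest mean signal. All levels are log2 signals as deposited and all changes are E12.5 minus E11.5 on that scale, so a change of 1 is a doubling. A gene is said to have risen or fallen where limma, a linear model with moderated errors, gave an adjusted p below 0.05 over 27022 probe sets.

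The optic fissure is a groove along the ventral side of the optic cup, through which vessels enter the eye and axons leave it. Its edges carry future neural retina on the inner side and pigment epithelium on the outer side, with mesenchyme around them, and they approach and fuse in midgestation. Failure of fusion gives the eye defect coloboma. Retinal neurogenesis starts close to the centre of the cup at about the time of fusion. Proneural factors, which are basic helix-loop-helix (bHLH) proteins, drive progenitors to leave the cell cycle, while Notch signalling between neighbours, acting through Hes repressors, holds others back. Retinal ganglion cells, whose axons form the optic nerve, are the earliest neurons to appear.

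Defining genes of the optic cup were present at both stages. The neural retina factors Pax6, Six3, Six6 and Lhx2 lay between 8.97 and 12.27 on the 5 arrays, Rax between 6.92 and 7.53, and the ventral factors Vax1 and Vax2 between 7.60 and 10.07. None of these 7 was called. Tyr and Tyrp1, enzymes of melanin synthesis, lay between 7.57 and 10.10, so genes of the pigment epithelium were present at both stages too. The array medians were close, from 4.37 to 4.38 on these arrays, but the upper end of the range was not. The 99th percentile was 11.17, 11.81 and 12.37 on E11.5 A, B and C, and 12.55 and 12.44 on E12.5 A and B, with 12.53 to 12.91 on the E10.5 arrays. For the Gapdh control, the 3 prime signal exceeded the 5 prime signal, a gauge of RNA integrity and amplification, by 3.36, 3.94 and 4.63 on the E11.5 arrays and by 5.17 and 4.78 on the E12.5 arrays. For Actb the excess was 5.45, 6.42 and 6.61, and then 6.88 and 7.21. Neither excess overlapped between the stages, and the part of these array differences in the results was not tested.

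Rises far outnumbered falls. Of 13050 genes, 233 rose (1.79%) and 31 fell (0.238%), and these shares are the background for every count of called genes below. At an unadjusted limma p below 0.05 there were 2358 of the 13050 genes, both directions together. That count is the background for the list counts at that threshold. The median change was 1.78 among the genes that rose and -1.74 among those that fell, against 0.108 over all genes. A change of at least 2 was reached by 85 of the rising and 11 of the falling genes, and one of at least 4 by 12 rising genes and 0 falling ones. Over probe sets, 438 were higher and 54 lower, which is 89% higher, with 4507 at an unadjusted p below 0.05. After quantile normalization the share that was higher became 67.5%, with 278 higher and 134 lower. By gene, 146 of the 233 rises and 29 of the 31 falls were still called after it, and 57 further genes were called lower. It moved the median change of all genes from 0.108 to -0.075, so the list medians below are also given relative to these values.

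**Figure D1:**
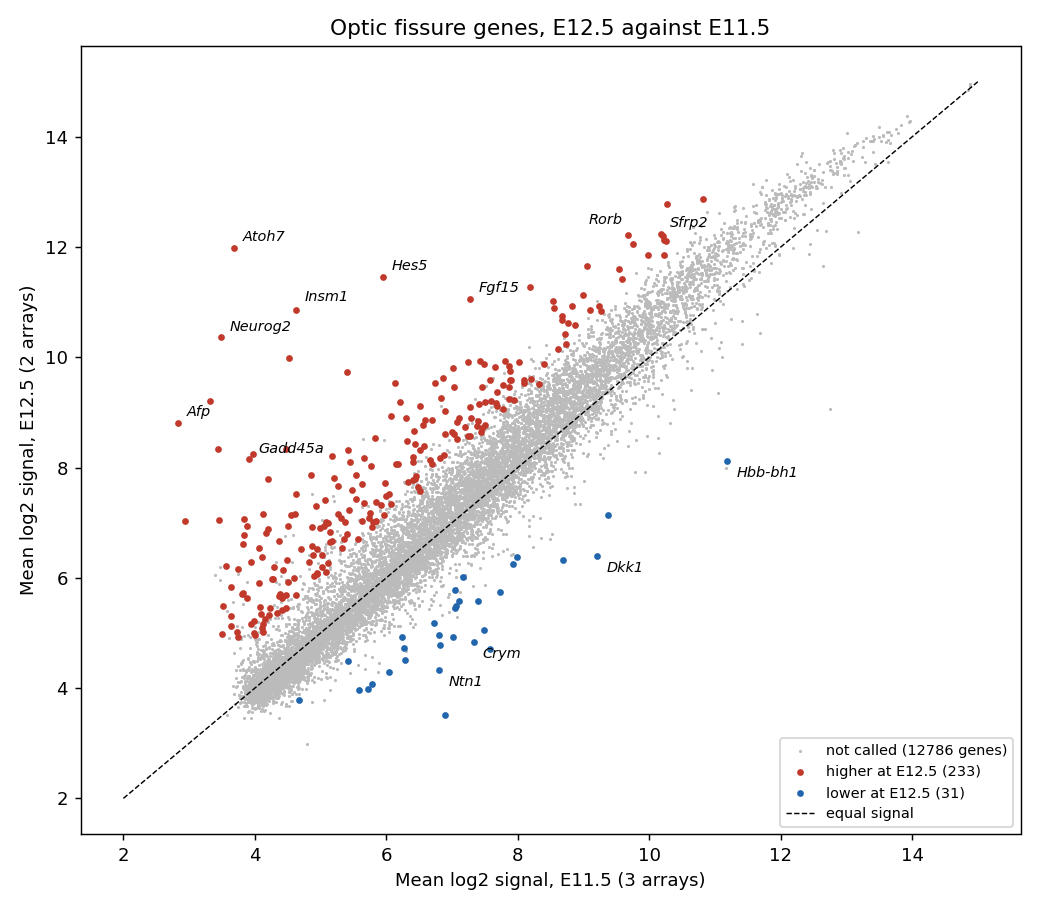
Each point is 1 of the 13050 measured genes, with its mean log2 signal over the 3 E11.5 arrays on the horizontal axis and over the 2 E12.5 arrays on the vertical axis. Red points are the 233 genes called higher and blue points the 31 called lower, many red points start near the lower end of the range at E11.5, and the dashed line marks equal signal.

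The rising genes were mostly low or moderate before E12.5. Their median level was 5.77, then 5.80, then 8.06 over the 3 stages, and 80 of the 233 had an E11.5 mean below 5, near the lower end of the range. In 231 of the 233 both E12.5 arrays stood above all 6 earlier arrays. The falling genes had median levels of 6.89, 7.04 and 4.96 in the same order. In 26 of the 31 both E12.5 arrays stood below all 6 earlier arrays. Over all 13050 genes, called or not, the E12.5 and E11.5 arrays did not overlap in 46%, with 4041 higher and 1965 lower. The called genes were selected by that same contrast, so their separation from the E11.5 arrays was in part built in.

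The E12.5 arrays were not alike in these genes. E12.5 B was above E12.5 A in 205 of the 233 rising genes, with a median gap of 0.48, and below it in 31 of the 31 falling genes, with a median gap of -0.575. Over all genes B was above A in 36.6%, with a median gap of -0.0757. A gap of more than 1 was found in 62 of the 233 rising genes and in 1.91% of all genes. The count of called probe sets, 492 with all arrays, was 114 without E12.5 B and 458 without E12.5 A. It was 184, 203 and 905 without E11.5 A, B and C, and 452, 322 and 849 without E10.5 A, B and C. By gene, 47 of the 264 called genes, 44 higher and 3 lower, were called whichever of the 8 arrays was left out. Counts of list members that stayed called, below, are likewise of representing probe sets, unless another is named.

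Factors that start neurogenesis were among the steepest rises. Of 19 measured proneural and neurogenic factors 8 rose and 0 fell, a share of 42.1% against the background of 1.79%. The list's median change was 1.02, which is 0.91 above that of all genes, and 0.63 above it after quantile normalization. Atoh7, a bHLH factor that progenitors need to form ganglion cells, read 3.63, 3.76 and 3.66 on the E11.5 arrays and 11.46 and 12.51 on the E12.5 arrays. Neurog2, another proneural bHLH factor, read 3.66, 3.65 and 3.15 and then 9.74 and 11.02. For both genes the stages were separated by more than 6, while the E11.5 arrays lay at the level of the E10.5 means of 3.81 and 3.72. In such bulk tissue more cells of a type and more RNA per cell cannot be told apart. Neurod1, which acts after these in differentiating neurons, read 3.28, 3.34 and 3.32 and then 8.75 and 9.65. Insm1, a zinc finger protein made in newborn neurons, read 4.35, 5.53 and 3.98 and then 10.39 and 11.32. In all 4 genes E12.5 B was the higher of the later arrays, and each was called in all 8 fits with an array left out.

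The other 4 rises in this list were smaller. Onecut1 and Onecut2, factors of ganglion and horizontal cell precursors, rose by 2.79 (limma adjusted p = 0.000689) and 2.61 (limma adjusted p = 0.00421). Foxn4, a forkhead factor upstream of amacrine and horizontal cells, read 6.58, 6.55 and 6.58 at E11.5 and 8.36 and 8.43 at E12.5. The arrays of each stage lay close together, and without E12.5 B the gene was not called. Hes6, which opposes Hes1 and favours differentiation, read 8.47, 8.53 and 8.61 and then 10.50 and 11.54, and was not called without E12.5 B either. Sox11 and Sox4, factors of postmitotic neurons, had changes of 1.26 and 1.02 and did not pass. Otx2, a factor of pigment epithelium and photoreceptor precursors, had a change of -0.86 that did not pass, and after quantile normalization it was called lower.

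Of 15 measured retinal ganglion cell factors 3 rose and 0 fell. Isl1, a LIM homeodomain factor of ganglion cells, had 2 probe sets, both called, with changes of 6.21 and 3.60. On the probe set with the larger change it read 3.08, 3.07 and 3.34 at E11.5 and 7.81 and 10.92 at E12.5. Dlx1, a homeodomain factor of retinal and forebrain precursors, read 3.48, 3.30 and 3.56 and then 7.37 and 9.29. Klf7, a zinc finger factor of growing axons, rose by 2.08 (limma adjusted p = 0.0389) on 3 of its 4 probe sets. Ebf1, Ebf3 and Pou4f1, further factors of ganglion cells, did not pass despite changes of 2.74, 2.65 and 2.53. Their E12.5 arrays lay far apart, since Pou4f1 read 6.88 on A and 10.12 on B, Ebf1 4.26 and 8.15, and Ebf3 5.99 and 9.05. The E11.5 arrays of Pou4f1 read 6.34, 5.62 and 5.94, so that E12.5 A lay close above them and E12.5 B far above. The list's median change was 0.721, which lay 0.61 above that of all genes, and 0.44 above after quantile normalization. Without E11.5 A 1 of the 3 rises stayed called. Of the 8 measured factors of horizontal, amacrine and photoreceptor cells 0 were called by limma, with 1 higher and 1 lower at an unadjusted p below 0.05.

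**Figure D2:**
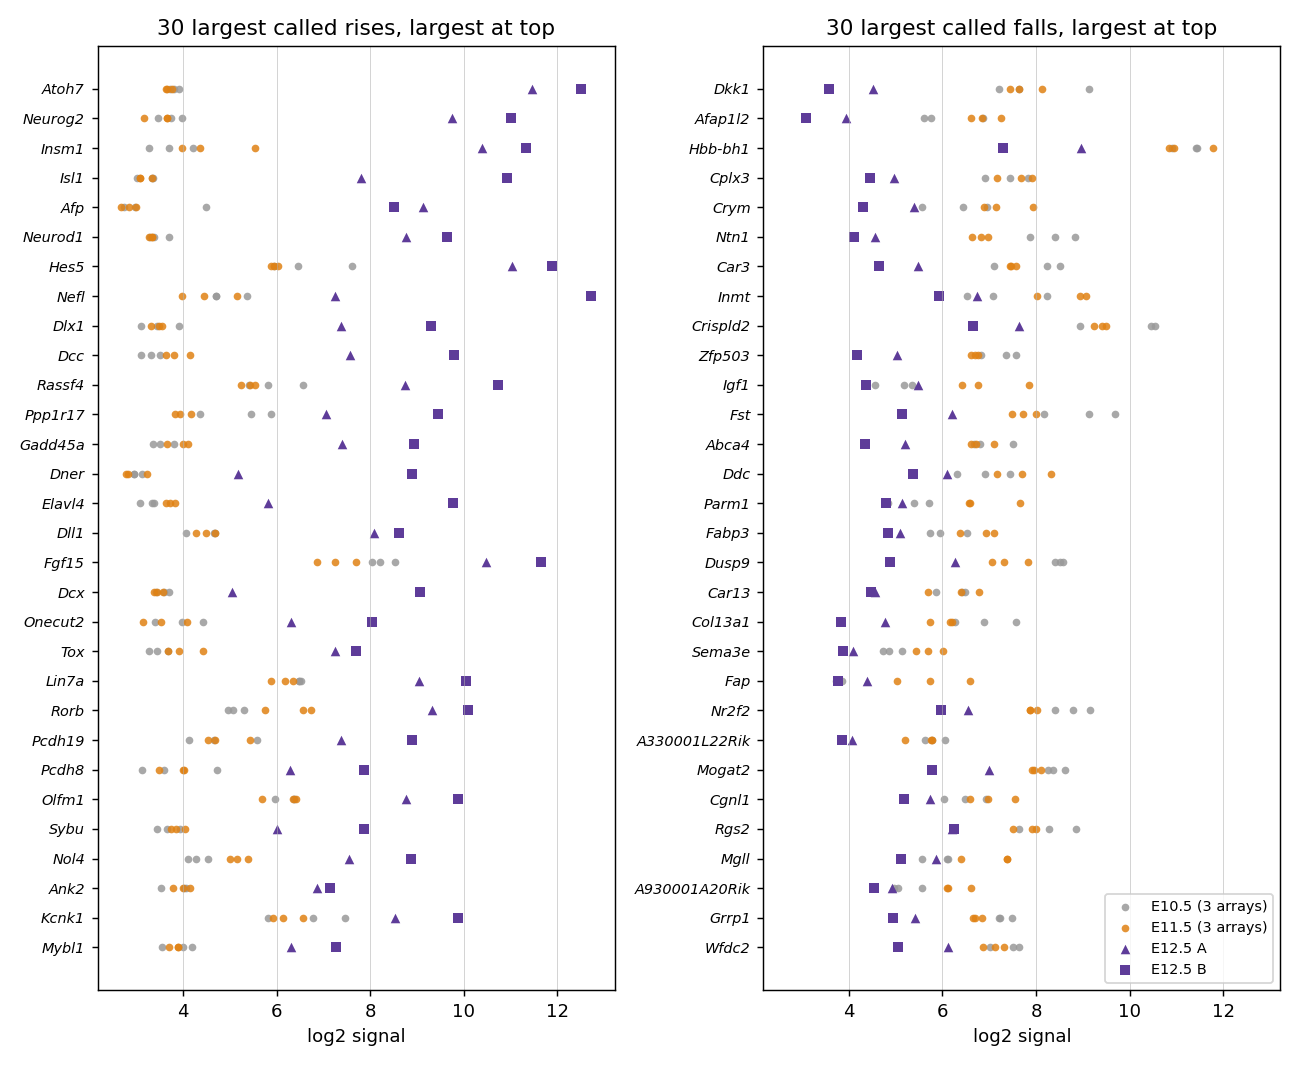
Log2 signal on every array for the 30 genes with the largest called rise (left) and the 30 with the largest called fall (right), by the probe set with the largest change. Grey and orange points are the 3 E10.5 and 3 E11.5 arrays, and purple triangles and squares are E12.5 A and B, with B farther from the earlier arrays than A in 29 of the 30 rises.

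The start of each promoter is shown for 3 of the rising genes that stand at this step, the proneural gene Atoh7, the Notch effector Hes5 and its relative Hes6. The sequences are the 250 bases before the RefSeq start site in GRCm38.p6. That of Atoh7 is chr10:63099535-63099784 on the plus strand, that of Hes5 is chr4:154960673-154960922 on the plus strand, and that of Hes6 is chr1:91414039-91414288 on the minus strand. Capitals mark matches to 3 short motifs, searched on both strands. These were TGGGAA, the core bound by the Notch partner Rbpj, and the E-boxes CAGATG and CAGCTG, a class of site for bHLH proteins. Other forms of E-box, such as CACCTG, which all 3 sequences hold, were not searched and are not marked.
Atoh7: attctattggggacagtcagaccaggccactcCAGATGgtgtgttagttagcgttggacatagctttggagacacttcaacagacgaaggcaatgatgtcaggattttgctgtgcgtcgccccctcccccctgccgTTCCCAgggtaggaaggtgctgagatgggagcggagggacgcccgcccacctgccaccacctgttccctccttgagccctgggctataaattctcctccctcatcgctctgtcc
Hes5: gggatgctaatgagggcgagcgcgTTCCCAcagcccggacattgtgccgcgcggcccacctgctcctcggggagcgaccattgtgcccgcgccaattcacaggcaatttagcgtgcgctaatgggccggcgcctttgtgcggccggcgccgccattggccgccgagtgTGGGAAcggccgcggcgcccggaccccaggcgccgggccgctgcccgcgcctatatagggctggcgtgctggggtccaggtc
Hes6: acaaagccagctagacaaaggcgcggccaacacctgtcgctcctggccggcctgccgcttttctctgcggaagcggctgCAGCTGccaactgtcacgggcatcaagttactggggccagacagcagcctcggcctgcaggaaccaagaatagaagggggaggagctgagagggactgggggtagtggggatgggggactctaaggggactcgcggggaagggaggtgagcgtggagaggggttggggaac
Atoh7 held CAGATG from 218 to 213 bases before the start and TGGGAA in reverse, as TTCCCA, from 114 to 109 bases before it. Hes5 held TTCCCA from 226 to 221 and TGGGAA from 82 to 77 bases before its start, and Hes6 held CAGCTG from 171 to 166. No marked match overlapped another. In windows of this length, TGGGAA was found in 20.6% of the 10535 measured genes with a promoter, in 18.4% of the 174 rising genes and in 31.8% of the 22 falling genes with one. CAGATG was found in 10.1%, 10.3% and 13.6% of these, and CAGCTG in 11.9%, 16.7% and 22.7%. A match is a description of the letters and not a measured binding site.

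Genes of the neuronal cytoskeleton and axon rose in part, and here the E12.5 arrays lay far apart. Of 36 measured genes 9 rose (25%) and 0 fell, with a median of 1.42. That was 1.32 above all genes, and 1.38 above them once arrays were quantile normalized. Nefl, a neurofilament subunit of axons, read 5.16, 4.44 and 3.98 at E11.5 and 7.24 and 12.72 at E12.5. Dcx, the microtubule protein doublecortin of young neurons, read 3.56, 3.38 and 3.45 and then 5.04 and 9.06. In both, E12.5 A lay above all E11.5 arrays, and E12.5 B lay above A by 5.48 for Nefl and 4.03 for Dcx. Map2, a microtubule protein of dendrites, read 4.28, 4.58 and 4.81 and then 5.92 and 8.37. Stmn4, a tubulin-binding protein of the stathmin family, was less spread, with 5.84, 5.72 and 5.74 and then 7.38 and 8.69. The neuronal RNA-binding proteins Elavl2, Elavl3 and Elavl4 rose by 2.25, 1.75 and 3.03, Tagln3, an actin-binding protein of neurons, by 1.89, and Dpysl2, a tubulin carrier in axon growth, by 1.63.

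Well-known neuronal genes in the same list did not pass. Tubb3, the neuron-specific tubulin, read 3.50, 3.42 and 3.48 at E11.5 and 4.49 and 7.42 at E12.5 (limma adjusted p = 0.0574). Stmn2 (limma adjusted p = 0.0574) and Stmn3 (limma adjusted p = 0.11) had changes of 2.34 and 2.86. Nefm, the medium neurofilament subunit, was chosen after its values were seen, and it read 3.76 on A and 8.34 on B against an E11.5 mean of 3.39. In the list as a whole 35 of 36 genes were higher on B than on A, and the median gap was 1.5. The median change from the E11.5 mean was 0.407 on A and 2.29 on B. Without E12.5 B 2 of the 9 rises stayed called, without E11.5 A or without E11.5 B 1, without E10.5 B 2, without E11.5 C 5, and after quantile normalization 4. None was called in all 8 fits with an array left out.

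**Figure D3:**
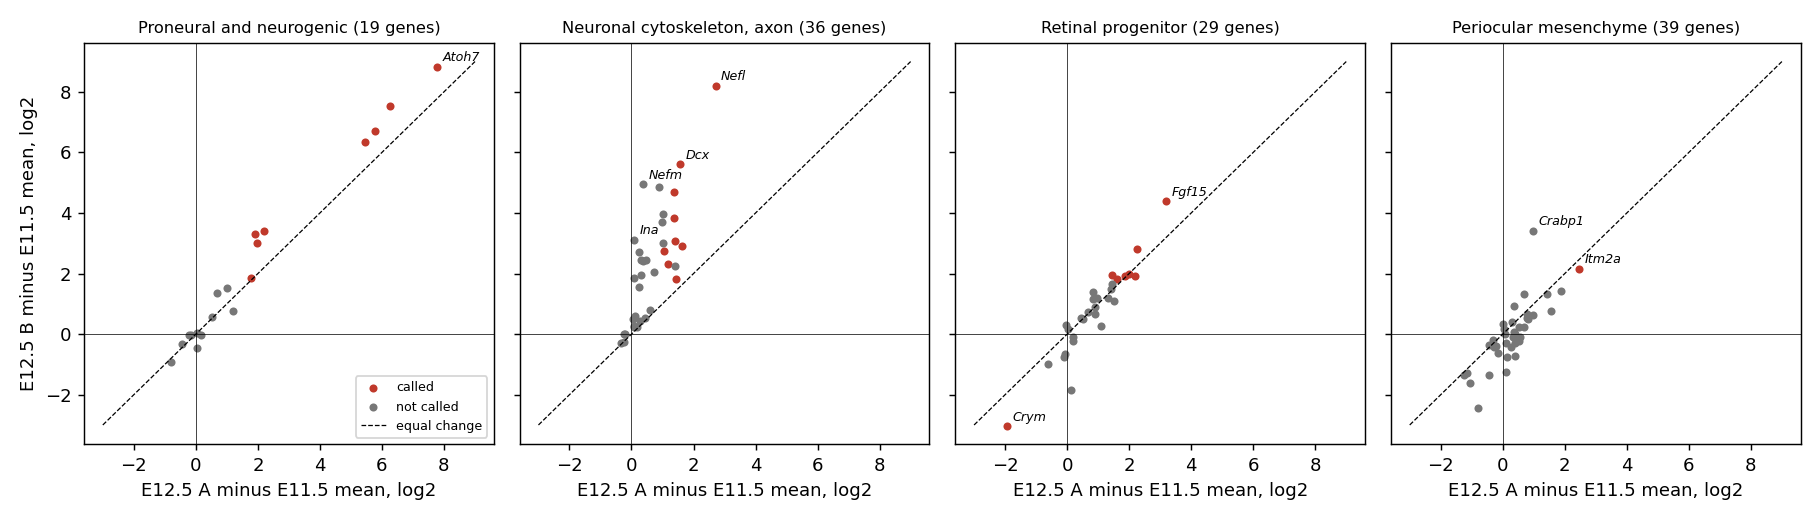
Log2 change of each gene from its E11.5 mean, on array E12.5 A (horizontal) and array E12.5 B (vertical), in 4 gene lists, with called genes in red and the dashed line marking equal change. Neuronal cytoskeleton and axon genes lie above the line, 35 of 36, while retinal progenitor genes lie along it, 14 of 29 above.

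Synapse and excitability genes followed in smaller number, with 6 of 30 higher, 0 lower and a median of 0.282. Kcnd3, a potassium channel, rose by 2.30 (limma adjusted p = 0.0025) and was the single member called in all 8 fits with an array left out on its representing probe set. The nicotinic receptor subunits Chrna3 and Chrnb4, which lie in 1 gene cluster and form a receptor together, rose by 1.91 and 1.19, and a second probe set of Chrna3, with a change of 2.11, was also called in all 8. Chrnb4 read 5.99, 5.96 and 5.94 at E11.5 and 7.17 and 7.12 at E12.5, so its stages were tight and apart. Even so, it was not called after quantile normalization or without E11.5 A or E11.5 B. Cadps, a protein of dense-core vesicle release, rose by 2.11, the neuropeptide Gal by 1.84, and Syt1, the calcium sensor of vesicle fusion, by 1.37. Syt1 was likewise not called after quantile normalization or without E11.5 A or E11.5 B. Snap25, of the fusion machinery, read 7.14 on E12.5 B, 3.15 above A, and did not pass. Without E12.5 B 1 of the 6 stayed called, and without E11.5 A 3.

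Some Notch pathway genes rose, among them a ligand, a receptor and modifiers of both. Of 26 measured genes 7 rose (26.9%) and 0 fell, while the list's median of 0.13 was close to the 0.108 of all genes. Dll1, the ligand of newborn neurons, read 4.27, 4.48 and 4.69 at E11.5 and 8.08 and 8.61 at E12.5. Dner, a neuronal transmembrane relative of the ligands, read 2.83, 2.78 and 3.22 and then 5.16 and 8.90. The receptor Notch1 read 6.68, 7.15 and 7.38 and then 8.57 and 9.10. Mfng, which adds sugar to the receptor and alters its response to ligands, read 5.70, 5.31 and 5.32 and then 7.42 and 8.79. Rbpj, the DNA-binding partner of cleaved Notch, rose by 1.58, its feedback inhibitor Nrarp by 1.81, and the E3 ligase Dtx4 by 1.27. Jag1, a ligand of another class, had a change of -1.05 that did not pass. Dll1 and Mfng were called in all 8 fits with an array left out, Notch1, Nrarp, Rbpj and Dtx4 were not called without E12.5 B, and 2 of the 7 stayed called without E11.5 A or without E11.5 B.

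Among 10 measured Hes, Hey and Id repressors 2 rose and 0 fell. Hes5 read 5.94, 5.88 and 6.02 at E11.5 and 11.03 and 11.89 at E12.5, after an E10.5 mean of 6.66. Hey1 read 6.39, 6.29 and 7.01 and then 7.89 and 9.67 (limma adjusted p = 0.0287). Hes1, a related repressor of the early optic cup, had a change of 0.67 and did not pass. Hes5 was called in all 8 fits with an array left out, and Hey1 was not called after quantile normalization or without E12.5 B, E11.5 A, E11.5 B or E10.5 B.

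Some retinal progenitor genes rose. Of 29 measured genes 7 rose (24.1%) and 1 fell, and over all 29 the median gap of E12.5 B over A was -0.003. Fgf15, a growth factor of the neurogenic progenitor zone, read 6.86, 7.25 and 7.70 at E11.5 and 10.46 and 11.65 at E12.5. Sox2, a factor that keeps neural progenitors, read 9.75, 10.26 and 10.62 and then 12.21 on both arrays, with an E10.5 mean of 11.42. Ccnd1, the main cyclin D of retinal progenitors, read 9.67, 9.81 and 10.45 and then 11.83 and 11.89, with an E10.5 mean of 10.98. In both, the E11.5 level was the lowest of the 3 stages, as was the 99th percentile of the arrays, whose part was not tested. Dach1, a cofactor of eye field factors, rose by 1.72, Fabp7, a fatty acid carrier of radial progenitors, by 1.70, and the nuclear receptor Rorb on 3 of its 3 probe sets. The secreted Wnt modulator Sfrp2 read 9.63, 10.20 and 10.70 and then 12.37 and 12.10. Crym, a thyroid hormone-binding protein, was the gene that fell, from 7.15, 6.89 and 7.94 to 5.40 and 4.29. After quantile normalization all 8 were still called, while the excess of the list's median over all genes went from 0.79 to 0.39. Without E12.5 B Fgf15 alone of the 8 stayed called on its representing probe set, while the other 2 probe sets of Rorb were called in all 8 fits with an array left out. Sox2 without E12.5 B had a change of 2.0 with limma adjusted p = 0.226. Without E12.5 A 4, without E11.5 A 5 and without E11.5 B 3 of the 8 stayed called.

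Few cell cycle genes were called, and several cell cycle exit genes rose. Of 74 measured cell cycle genes 2 rose, Ccnd1 and the G1 cyclin Ccne2, and 0 fell, a share of 2.7% that lies near the background. At an unadjusted limma p below 0.05 there were 26 higher and 0 lower, beside 2358 of all 13050 genes in both directions. Changes above 0 were found in 66 of the 74. The list's median was 0.632, which was 0.52 above all genes as deposited and 0.22 above them after quantile normalization. Ccne2 read 6.14, 6.45 and 6.64 at E11.5 and 8.19 and 8.03 at E12.5. Of 19 cell cycle exit genes 5 rose (26.3%) and 0 fell, with a median of 0.686, an excess of 0.58 as deposited and 0.74 after quantile normalization. Gadd45a, a growth arrest gene, read 4.09, 3.65 and 4.01 and then 7.40 and 8.93. Its relative Gadd45g rose by 1.49, the antiproliferative gene Btg2 by 1.81, the CDK inhibitor Cdkn2c by 1.13, and Rb1, the retinoblastoma protein, by 1.70. Gadd45a was called in all 8 fits with an array left out, while 2 of the 5 stayed called without E12.5 B and 1 without E11.5 A or without E11.5 B. Ccnd1 and Ccne2 were not called without E12.5 A or without E12.5 B.

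Genes tied to the ventral optic cup and to fissure closure changed in small number and in both directions. Of 48 measured genes, 2 rose, 2 fell and 44 were not called, with a median of 0.124. That median differed from all genes by 0.02 as deposited and by -0.12 after quantile normalization. The share that rose was 4.17% against the background of 1.79%. Ntn1, the secreted guidance cue netrin 1 that is needed for the fissure to close, read 6.97, 6.63 and 6.83 at E11.5 and 4.56 and 4.10 at E12.5, after an E10.5 mean of 8.37. Its level was lower at each successive stage, and the fall of 2.47 (SE 0.30, limma adjusted p = 0.00158) was called in all 8 fits with an array left out. Nr2f2, a nuclear receptor of early eye morphogenesis, read 7.88, 7.88 and 8.02 and then 6.54 and 5.97. It was called on 2 of its 6 probe sets, and without E12.5 B the change was -1.38 (limma adjusted p = 0.41). Smoc1, a secreted BMP modulator mutated in a human eye malformation, read 6.90, 7.33 and 6.98 and then 8.63 and 8.42. Fzd5, a Wnt receptor whose loss gives coloboma in mice, read 10.19, 10.99 and 11.25 and then 12.85 and 12.88. Its E10.5 mean was 12.26, so here too E11.5 was the lowest stage, beside the lower 99th percentile of its arrays. Without E12.5 B neither was called, with changes of 1.56 (limma adjusted p = 0.158) for Smoc1 and 2.04 (limma adjusted p = 0.318) for Fzd5. Without E12.5 A, E11.5 A or E11.5 B 2 of the 4 stayed called.

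Other genes of this list lay lower at E12.5 without passing on their representing probe set. Zfp503, a zinc finger corepressor of the fissure margin, read 9.87, 10.17 and 10.35 at E11.5 and 9.44 and 8.42 at E12.5 (change -1.20, limma adjusted p = 0.138). Its second, dimmer probe set fell by 2.09 (limma adjusted p = 0.00497), so the gene was called on 1 of 2. Foxd1, a forkhead factor of the temporal retina, read 9.86, 10.14 and 10.41 and then 9.01 and 8.08 (change -1.60, limma adjusted p = 0.109). Both Zfp503 and Foxd1 were called lower on these probe sets after quantile normalization. Zfp703, the close relative of Zfp503, had a change of -0.49 and Bmp7 of -0.53, and neither passed. Vax1, at 0.11, Vax2, at 0.89, and Aldh1a3, a retinoic acid enzyme of the ventral cup, at 0.14, did not pass either. Nor did Tbx5 (-0.19) or Tbx2 (0.07), T-box factors of the dorsal cup, the hedgehog co-receptor Cdon (1.34), the adhesion protein Cdh2 (0.46) or the Hippo effectors Yap1 (0.46) and Tead1 (0.01).

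**Figure D4:**
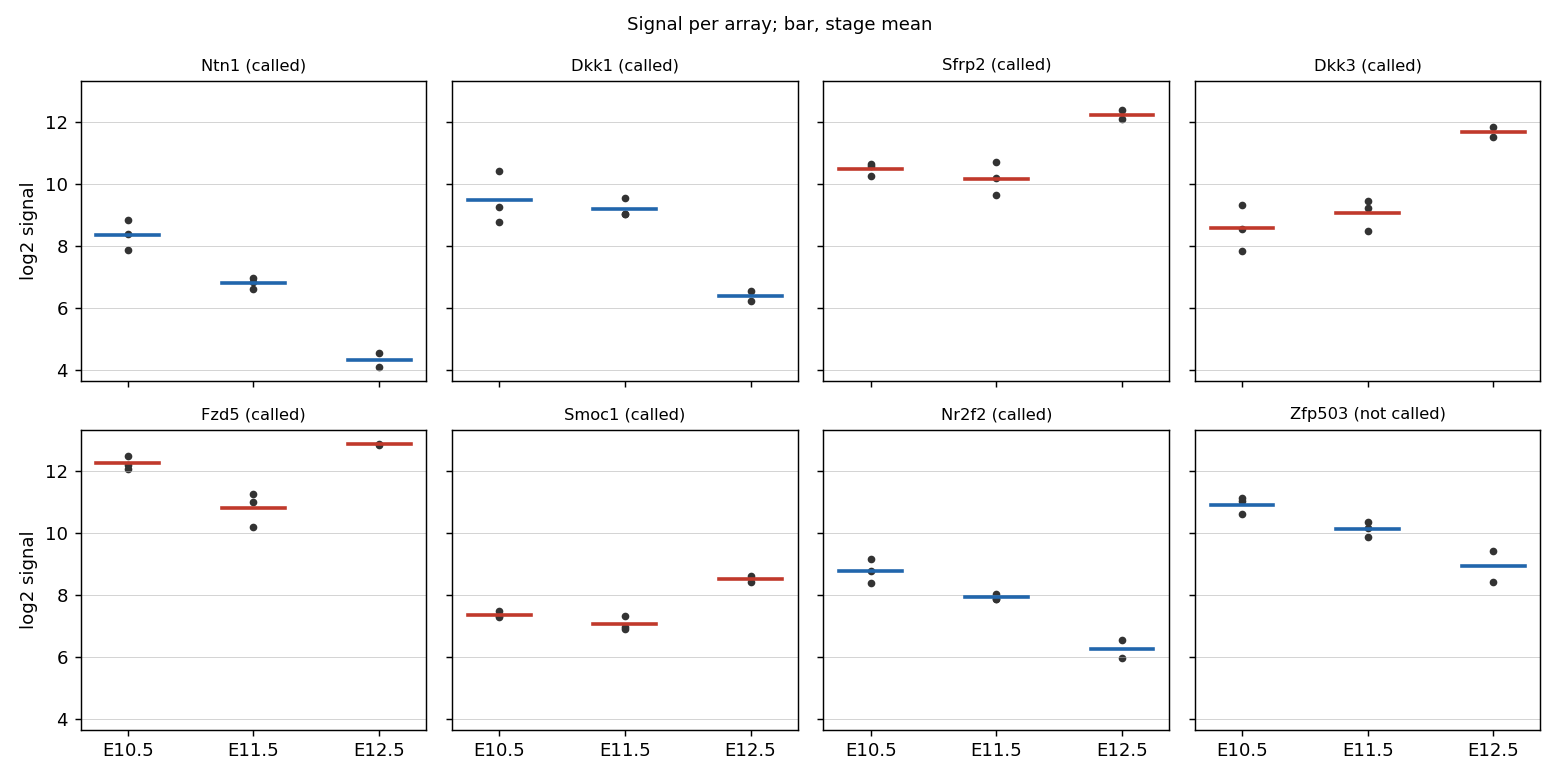
Log2 signal on each array (points) and stage mean (bars, red where E12.5 was above E11.5 and blue where below) for 8 genes of the fissure closure and Wnt lists, by representing probe set. Ntn1, Dkk1 and Nr2f2 fell from E11.5 to E12.5, Sfrp2, Dkk3, Fzd5 and Smoc1 rose, and Zfp503 was not called on this probe set.

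No gene of the pigment epithelium list was called. Of 33 measured genes 0 passed in limma, with 1 higher and 9 lower at an unadjusted p below 0.05. Their median of -0.221 was 0.33 below that of all genes, and 0.40 below after quantile normalization. Trpm1, a channel of melanocytes and pigment epithelium, read 9.53, 9.77 and 10.51 at E11.5 and 8.49 and 7.35 at E12.5 (change -2.02, limma adjusted p = 0.10). Mitf, the regulator of pigment cell fate, read 9.66, 10.40 and 11.05 and then 9.77 and 8.67 (change -1.15, limma adjusted p = 0.264), with its other probe set called lower. After quantile normalization both Trpm1 and Mitf were called lower on the probe sets given. Rab38, which carries cargo to melanosomes, had a change of -1.19 and did not pass. Tyr, Tyrp1, Dct and Pmel, enzymes and a fibre protein of the melanosome, had changes of 0.83, 0.24, -0.10 and -0.28, and the arrays of the stages overlapped in all 4.

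Periocular mesenchyme, basement membrane and matrix protease genes held few calls. Of 39 mesenchyme genes 1 rose, Itm2a, a membrane protein of cartilage and muscle precursors, from 9.14, 9.82 and 10.28 to 12.21 and 11.91. It was not called when E12.5 A, E12.5 B or E11.5 B was left out. Pdgfrb and Foxc2, of vessel-associated and neural crest mesenchyme, had changes of -1.21 and -1.34 (limma adjusted p = 0.0575 and 0.0722). Of 26 basement membrane genes 1 rose, Col4a5, a collagen IV chain, from 7.84, 8.35 and 8.40 to 9.48 and 9.74, and it was not called after quantile normalization or without any 1 of E12.5 A, E12.5 B, E11.5 A, E11.5 B and E10.5 B. Lamb1, the beta chain of the main laminin, lay between 11.0 and 11.79 and then read 10.57 and 9.93. Its change of -1.16 did not pass as deposited and was called lower after quantile normalization. Of 27 matrix proteases and inhibitors 0 were called by limma, with 1 higher and 3 lower at an unadjusted p below 0.05. Adamts9, a protease that cuts the matrix proteoglycan versican, read 8.73, 8.84 and 9.26 and then 8.34 and 6.33 (change -1.61, limma adjusted p = 0.133).

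Cell adhesion genes rose in 6 of 45 cases (13.3%), with 0 falls and a median of 0.061, close to that of all genes. Cdh4, or R-cadherin, read 6.69, 7.31 and 7.07 at E11.5 and 9.31 and 9.62 at E12.5 (limma adjusted p = 0.00158). Pcdh19, an adhesion protein of the protocadherin family, read 5.27, 5.16 and 5.85 and then 7.42 and 9.21. These were the 2 members called in all 8 fits with an array left out on their representing probe sets. Itgb8, an integrin subunit that activates latent TGF-beta, read 7.75, 8.07 and 8.23 and then 9.86 and 9.99. Pcdh8, another protocadherin, lay between 3.48 and 4.02 and then read 6.28 and 7.87. Fat4, a giant cadherin of planar polarity, rose by 1.68, and the neural adhesion molecule Ncam1 by 1.85, with 3 of its 4 probe sets called, 1 of them in all 8 such fits. Without E12.5 B 2 of the 6 stayed called.

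Among 51 axon guidance genes 5 rose (9.8%) and 2 fell. The Eph receptors accounted for 3 of the rises, with Epha5 at 2.86 (limma adjusted p = 0.00113), Ephb1 at 2.37 and Epha3 at 1.72. Ephb1 and Epha3 were not called after quantile normalization or without E11.5 A or E11.5 B. Epha5, a receptor that guides temporal axons, read 5.56, 6.26 and 6.40 at E11.5 and 8.71 and 9.17 at E12.5. Plxnc1, a semaphorin receptor, and Draxin, a secreted repellent, rose by 1.47 and 1.28. The falls were Ntn1 and Sema3e, a semaphorin that acts on vessels and axons through Plexin D1. Sema3e read 5.69, 5.44 and 6.02 and then 4.09 and 3.88, on 1 of its 2 probe sets. Draxin binds netrin 1, and the netrin receptor Dcc was not called on its representing probe set, with a change of -0.38. It was called on the other 2 of its 3 probe sets, with 3.62, 4.15 and 3.81 at E11.5 and 7.56 and 9.79 at E12.5 on the one with the larger change. The probe sets of Dcc thus disagreed in direction. Epha5 and Ntn1 were called in all 8 fits with an array left out, and the other 5 of the 7 called genes were not called without E12.5 B. Without E11.5 A 4 and without E11.5 B 3 of the 7 stayed called.

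Secreted Wnt modulators changed in both directions. Of 49 measured Wnt pathway genes 3 rose (6.12%) and 1 fell, with a median of 0.006. Dkk1, which blocks Wnt co-receptors, read 9.04, 9.03 and 9.56 at E11.5 and 6.56 and 6.23 at E12.5, with an E10.5 mean of 9.50. Dkk3, of the same family by sequence but not a blocker of that kind, read 8.49, 9.21 and 9.46 and then 11.50 and 11.83. Sfrp2 and Fzd5 were described above. Each of the 4 was still called after quantile normalization, none was called without E12.5 B, and 2 were without E12.5 A or without E11.5 B. Fzd4, another receptor, and the modulator Sfrp1, the latter chosen after its values were seen, were not called as deposited and were called lower after quantile normalization. The receptor Lgr4 had a change of 1.41 and the Wnt enhancer Rspo3 of -1.58, and neither passed.

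In the other signalling lists few genes were called. Of 30 FGF pathway genes 3 rose, with Etv5, a target of the pathway, at 3.44, 3.33 and 4.13 and then 5.25 and 5.36, and the ligand Fgf9 at 7.76, 8.08 and 7.59 and then 9.74 and 10.12. Fgf9 was not called after quantile normalization or when E12.5 A, E12.5 B, E11.5 A or E11.5 B was left out. The feedback phosphatases Dusp4 and Dusp6 had changes of 1.62 and 1.47 that did not pass. Of 39 BMP and TGF-beta genes 1 rose, the receptor Bmpr1b, from 7.64, 7.88 and 8.06 to 9.30 and 9.62, and it was not called without any 1 of the E12.5 arrays, E11.5 A and E11.5 B. The BMP antagonist Fst was not called on its brighter probe set, with a change of -1.49, and fell by 2.08 on the other. Of 18 hedgehog genes 1 rose, the ligand-binding inhibitor Hhip, by 1.23, and it was called in 3 of the 8 fits with an array left out and not after quantile normalization. Of 17 retinoic acid genes 0 were called by limma, with 2 higher and 2 lower at an unadjusted p below 0.05.

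Many called genes were in none of the lists, 162 of those that rose and 25 of those that fell. Among the largest rises were Rassf4, a Ras-association protein, and Ppp1r17, a phosphatase inhibitor, which read 3.94, 4.16 and 3.82 at E11.5 and 7.05 and 9.46 at E12.5. Lin7a, a scaffold protein of synapses and cell junctions, read 6.18, 5.88 and 6.35 and then 9.03 and 10.04. Tox, a high mobility group factor, rose on both of its probe sets with little spread, at 3.68, 3.92 and 4.41 and then 7.24 and 7.69 on the one with the larger change. Olfm1, a secreted olfactomedin of neurons, rose on 3 of its 3 probe sets, Ank2, an ankyrin of axons, on 2 of 3. Mybl1, a relative of the proto-oncogene Myb, rose by 2.95. Sybu, Nol4 and Kcnk1, a carrier of axonal cargo, a nucleolar protein and a potassium channel, rose by 3.06, 3.03 and 2.99.

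The following rises lay outside the naming rule and were chosen after their values were seen. The Tox relatives Tox2 and Tox3 rose by 1.91 and 2.66, beside Tox itself. Myb read 6.36, 6.93 and 7.30 at E11.5 and 9.56 and 9.69 at E12.5. Crb1, an apical polarity protein mutated in human retinal dystrophies, read 4.09, 4.18 and 4.05 and then 6.26 and 6.50 (limma adjusted p = 5.74e-05). Arntl, the core clock factor Bmal1, rose by 2.79 to 9.18 and 9.88. The neurotrophin receptor Ntrk2 rose by 2.40, Srgap3, a partner of the Slit receptors, by 2.79, and the corepressors Tle1 and Tle4, which work with Hes proteins, by 1.96 and 1.54. Mir124-2hg, the host transcript of a neuronal microRNA, rose by 1.87. Hoxd13, a factor of the distal limb, read 3.73, 3.62 and 3.55 and then 4.74 and 6.95, a rise in a gene of another body region that lay mainly on E12.5 B. Reln, a secreted guidance protein, read 7.73, 8.48 and 9.44 and then 10.86 and 10.94 and was called in 3 of the 8 fits with an array left out and not after quantile normalization.

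The largest falls were of varied function. Afap1l2, an adaptor of Src signalling, fell by 3.39, to 3.94 and 3.08 at E12.5, the lower end of the range, on 1 of its 2 probe sets. Cplx3, a complexin of retinal ribbon synapses, read 7.16, 7.67 and 7.92 and then 4.97 and 4.46. It was in none of the lists and fell where 6 genes of the synapse list rose. Afap1l2, Cplx3 and Ntn1 were the 3 of the 30 largest falls called in all 8 fits with an array left out. Car3, a carbonic anhydrase, read 7.43, 7.58 and 7.46 and then 5.47 and 4.65, and its relative Car13 fell by 1.79 and 1.11 on its 2 probe sets. Crispld2, a secreted protein, read 9.40, 9.50 and 9.24 and then 7.63 and 6.66. Igf1, the growth factor, fell by 2.08 on 1 of its 3 probe sets, Ddc, the enzyme of dopamine and serotonin synthesis, by 1.99, and Abca4, a retinoid transporter, by 2.04. Rgs2, a regulator of G-protein signalling, read 7.91, 8.01 and 7.51 and then 6.19 and 6.25, with the E12.5 arrays close together. Inmt, a methyltransferase, read 8.02, 8.95 and 9.07 and then 6.74 and 5.92. The others, with falls of 1.52 to 1.97, were the membrane protein Parm1, the fatty acid carrier Fabp3, the phosphatase Dusp9, the collagen Col13a1, the surface protease Fap, the lipid enzymes Mogat2 and Mgll, the junction protein Cgnl1, the secreted protein Wfdc2, and Grrp1, A330001L22Rik and A930001A20Rik. Of the 30 falls, 29 were still called after quantile normalization and 3 without E12.5 B. Of the 30 largest rises these numbers were 28 and 27.

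Markers of other cell types gave mixed values. Of 16 erythroid genes 1 fell, Hbb-bh1, an embryonic globin, from 10.95, 10.83 and 11.79 to 8.96 and 7.29 on 3 of its 3 probe sets, and it was not called without E12.5 B. Hba-x, the other embryonic globin, had a change of -1.17 that did not pass. Afp, alpha-fetoprotein, a serum protein of yolk sac and liver, read 2.84, 2.98 and 2.67 at E11.5 and 9.13 and 8.50 at E12.5. Alb, serum albumin, read 3.57, 3.33 and 3.63 and then 4.98 on both arrays, so both E12.5 pools carried these transcripts. The further liver genes Apoa1 and Fgb lay from 3.63 to 4.21 on all 5 arrays, near the lower end. Afp and Alb were the 2 called genes of 13 in the liver and yolk sac list, and both were called in all 8 fits with an array left out. The summed signal of the 13, on the log2 scale, was 8.51 to 8.78 over the E11.5 arrays and 9.45 to 9.87 over the later pair. Such a sum follows its brightest genes, and 8 of the 13 had changes below 0, with a list median of -0.14. The summed signal of the 16 erythroid genes overlapped between the stages, at 13.50 to 14.62 and 14.21 to 14.28. The part of these cells in the results was not tested. Of 15 skeletal muscle genes 1 rose, Pax7, a factor of muscle and neural crest progenitors, by 1.31, and it was called in 2 of the 8 fits with an array left out, while Myog and Myod1 lay between 3.15 and 4.29. Of 10 neural crest genes 1 rose, Fabp7, which is also a progenitor gene.

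The lists with 0 genes called by limma also held the macrophage, endothelial, lens, surface ectoderm and brain region markers. At an unadjusted p below 0.05 there were 2 higher and 0 lower of 19 macrophage genes, and 1 each way of 16 endothelial genes. There were 0 either way of 13 lens and of 11 surface ectoderm genes. There were 3 higher and 1 lower of 15 brain region genes. The summed signals of the brain region list, 10.59 to 11.33 and then 12.08 to 12.14, and of the macrophage list, 12.61 to 12.89 and then 13.10 to 13.11, did not overlap between the stages. Nor did those of the 39 mesenchyme genes, higher at 12.85 to 13.62 and then 13.87 to 14.17, and of the surface ectoderm list, lower at 9.68 to 10.10 and then 9.16 to 9.25. Those of the endothelial, lens, skeletal muscle and neural crest lists overlapped, and the part of these sums in the results was not tested. Such sums follow their brightest genes and were formed from the values as deposited only. The 99th percentile of the arrays was itself 11.17, 11.81 and 12.37 at E11.5 and 12.55 and 12.44 at E12.5. Over all genes, 46% did not overlap between the stages. The sums therefore cannot separate a change in cell types from a difference between arrays. By gene, 10 of the 15 brain region genes had changes below 0 and 5 above it, up to 2.29. The forebrain markers Emx2 and Nkx2-1 had changes of -0.79 and -0.17 and did not pass. Above 0 lay 10 of the 19 macrophage and 24 of the 39 mesenchyme genes, and below 0 lay 8 of the 11 surface ectoderm genes. The lens genes Foxe3, Mip and Crygs lay between 3.04 and 4.03 on all 5 arrays. Of the other lens markers, Cryaa lay between 3.70 and 4.31 and Crybb1 higher, between 5.13 and 5.53, and neither was called. The 30 apoptosis genes held 3 higher and 3 lower at that unadjusted threshold, the 30 integrated stress response genes 1 each way, and the 33 glycolysis and hypoxia genes 3 and 5. The 38 ribosomal protein genes held 0 either way. Their median change was 0.416 as deposited and -0.0931 after quantile normalization, so its direction depended on the scaling.

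**Figure D5:**
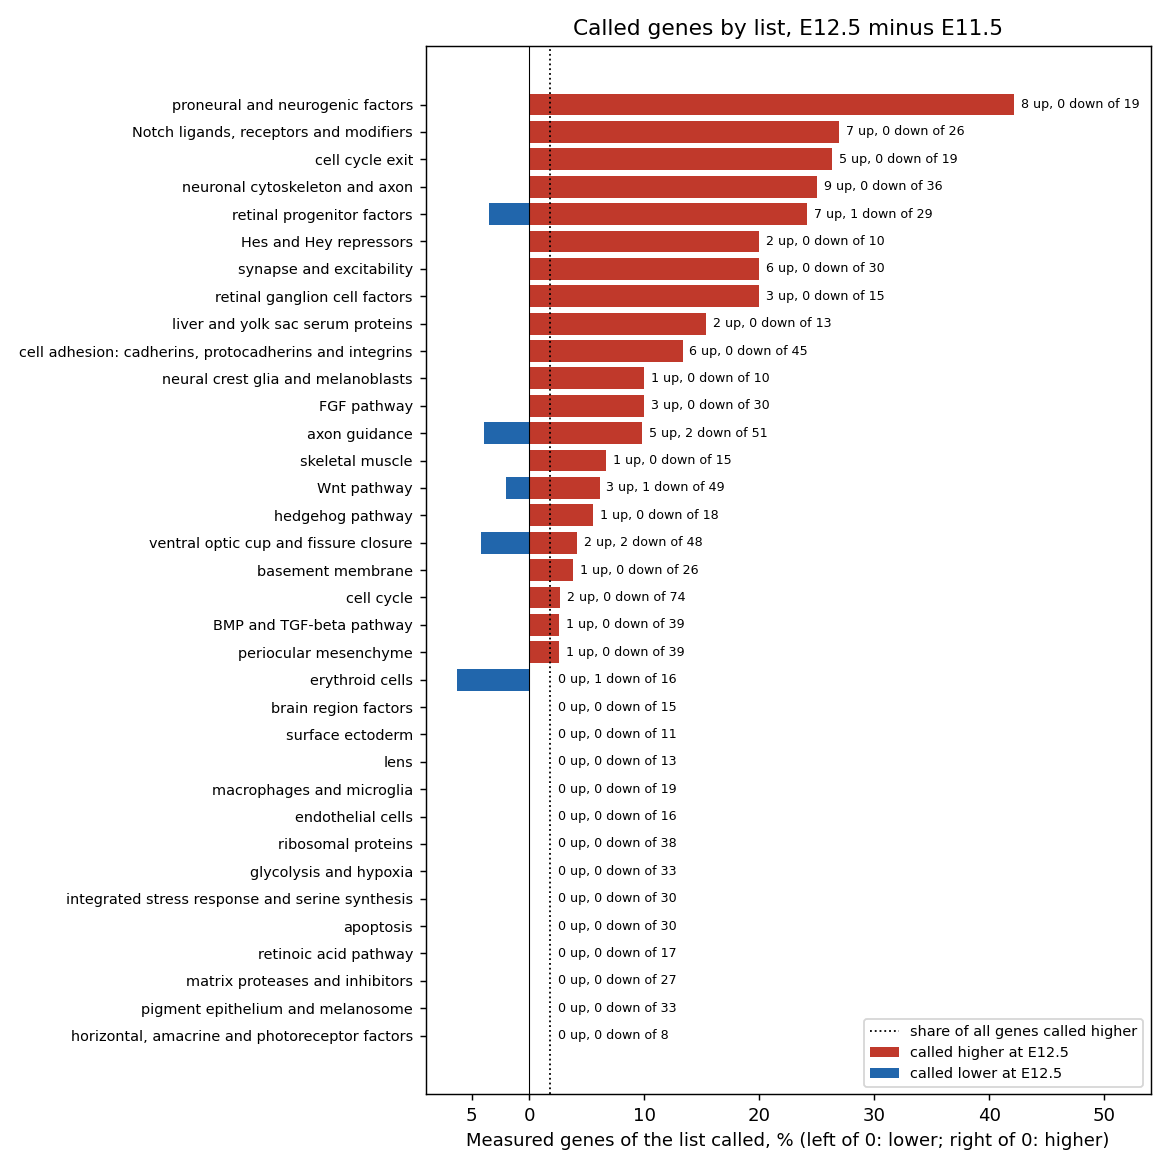
Share of the measured genes of each list called higher (red, right of 0) or lower (blue, left of 0) at E12.5, with counts beside each bar. The dotted line marks the share of all measured genes called higher, 1.79%, and the proneural list reached 42.1%.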

How the data were processed

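RNA from laser-captured optic fissure was measured on 8 arrays, each of a pool of 3 embryos, so p-values measure only the spread between pools. The deposited values lie on a log2 scale, as judged from their range. The submitters' processing notes name GCOS 1.4, and no label or header used here states the normalization. The 64 control probe sets and the 40% of the others with the lowest mean signal over all 8 arrays, below 3.94, were left out. A gene low at the earlier stages could therefore pass through its E12.5 signal alone. limma 3.58.1 in R 4.3.3 (trend on mean signal, 5 residual degrees of freedom before moderation), tested on simulated data, was fitted over all 8 arrays with Benjamini-Hochberg adjustment over 27022 probe sets. With 3 arrays against 2, an exact permutation test cannot reach 0.05. Symbols of the 2016 platform annotation were updated to RefSeq GRCm38.p6, which matched 34741 of 34945. Some probe sets, among them those of Atoh7 and Afap1l2, can by their suffix detect related transcripts.

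The 35 gene lists held 1226 symbols, 889 of them measured, and can share genes. The text names the 30 largest rises and 30 largest falls among called genes whose stages did not overlap, the called genes of each list with up to 6 others by p, the list of the ventral cup and the defining markers. Members, lists and genes were chosen with earlier results of these data known. Alternatives were quantile normalization, median centring, other offsets and filters, no trend, only the arrays compared, the replicate letter as a block, and each array left out.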

Additional observations from a re-analysis of the deposited data

How the results depend on the processing

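Against 492 called probe sets, 438 higher and 54 lower, quantile normalization called 278 higher and 134 lower. With only the E11.5 and E12.5 arrays 86 were lower. Leaving out single arrays gave 114 to 905 in all, 111 to 850 higher and 3 to 112 lower, with the lowest totals without E12.5 B and the highest without E11.5 C, and a lone E12.5 array was assumed to vary like the arrays of the other stages. With the replicate block the count was 280, of which 253 were higher and 27 lower. The deviations of same-letter arrays from their stage means correlated at -0.394 to 0.127, and those of arrays with different letters at -0.149 to 0.409. Deviations from means of 2 or 3 arrays constrain each other, so these values cannot decide whether the letters pair the samples. The cause of the differences between these counts was not tested. Median centring called 443, offsets of 1 and 64 called 492 and 553, no filter 449, the filter of the lowest 60% 359 and no trend 369. Over the named probe sets and these settings, 0 called values changed direction. For probe sets called as deposited, 1569 values stayed past the threshold and 411 did not, and for the others 736 stayed short of it and 6 passed it. The number of arrays, 2 at E12.5, limits the precision of every value.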

Other observations

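Over the 13050 measured genes, E12.5 A lay above E12.5 B in 8264, and it did so in 31 of the 31 called falls. Most called rises went the other way. Some genes with a large excess on A are given as values and were chosen after their values were seen. Aldh1a7, an aldehyde dehydrogenase, read 10.97 on A and 8.58 on B, with an E11.5 mean of 10.06. Hmga2, a chromatin protein of embryonic cells, read 11.78 and 9.81 around an E11.5 mean of 11.64. The matrix genes Vcan, Postn and Lum read 10.37, 7.56 and 4.92 on A and 8.71, 5.89 and 3.54 on B. Cdh6, a cadherin, read 7.17 on A and 5.32 on B, and the secreted Wnt modulator Dkk2 read 5.87 and 4.21. For these 7 genes A lay within 1 of the E11.5 mean and B lay below it by more than 1, and none was called.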
